A study of Arabidopsis thaliana with 12 samples.

Results

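The plant response to low oxygen rests on a core of genes whose transcripts increase in many cell types, and 38 of them were followed here, out of 28642 genes in the deposited table. They were taken by gene identifier as core low-oxygen genes other than the fermentation enzymes, the ERF-VII transcription factors, the plant cysteine oxidases, LBD41, HRA1, the phytoglobins, CML38, SAD6 and ETR2. All 38 identifiers were found in the table. For description they were sorted into role groups. There were 10 small proteins of unknown function, 3 of the wound-responsive family and 3 in hormone and growth. Another 6 were placed in reactive oxygen and stress signalling, 4 in protein turnover and 12 in metabolism and transport. The last group is loose and also holds the leucine-rich repeat protein AT2G15880 and the aluminium-induced protein AT4G27450. The samples were pools of 80 wild-type Arabidopsis thaliana plants, 14 days old, grown from seed in liquid half-strength MS medium with 0.5% sucrose. The treated groups received an acyl-CoA for 90 min at a final 0.1% in 0.01% Pluronic F68, a surfactant: the stearoyl form (C18:0 CoA), the oleoyl form (C18:1 CoA) or the palmitoyl form (C16:0 CoA). Control plants were given only the surfactant. There were 3 libraries from such pools in each of the 4 groups, which the labels call biological replicates, made from poly(A) RNA of whole seedlings. No group was kept in low oxygen, as far as the labels say.

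In air, plant cysteine oxidases oxidise the amino terminus of the ERF-VII transcription factors, which marks them for degradation. When oxygen falls, or when the factors are released from acyl-CoA-binding proteins at the plasma membrane, they can reach the nucleus and switch on the core genes through a short promoter sequence, the hypoxia-responsive promoter element. Many of the resulting transcripts encode small proteins with no assigned function, others enzymes, transporters and signalling proteins that adjust metabolism, ethylene production and reactive oxygen. Each acyl-CoA was set here against the surfactant alone.

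Exon reads per library ranged from 348140 to 6126277, 17.6-fold, and 3 libraries held fewer than 1000000 reads, namely replicate 2 of C18:0 CoA (602649), replicate 1 of C18:1 CoA (348140) and replicate 2 of C16:0 CoA (640605). In these 3 the shortest genes stood 0.39, 0.45 and 1.09 (log2) above the longest, against -0.45 to 0.08 in the other 9. A level of 3 reads, the least that counting can separate from 0, was 0.476 CPM in the deepest and 8.85 CPM in the shallowest library. In C16:0 CoA replicate 2, 2.55% of the genes for which 5 or more reads were expected from the other libraries had none, against 0% to 1.15% elsewhere. All 5 green-tissue markers and 4 of 5 root markers had reads in every library, as whole seedlings would give. The summed root markers ranged from 165 to 253 CPM in the control, 126 to 180 with C18:0 CoA, 112 to 153 with C18:1 CoA and 116 to 156 with C16:0 CoA, and their part in the results below was not tested. In whole seedlings, more RNA per cell and more cells of a type cannot be told apart.

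Of the 38 members, 36 passed the filter on low counts and entered the test among 17036 genes. AT5G10040, a small protein of unknown function, had 0 exon reads in all 12 libraries, and it overlaps AT5G10030, which held 1674. AT5G45960, of the GDSL lipase family, had 12 reads in all. The filter asked for about 4.28 CPM in 3 libraries. AT2G14247, AT4G10265 and AT5G42200 reached it in only 2, 1 and 1 of the control libraries, so that they entered with the help of acyl-CoA libraries, and counts over the 36 describe the members that passed only.

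Most of these genes were higher with each acyl-CoA than in the control, by 1.33- to 1.45-fold at the median member, but no single gene, member or other, passed the test over all genes. With C18:0 CoA 30 of the 36 had a positive log2 fold change, with C18:1 CoA 32 and with C16:0 CoA 28, where 50.4%, 50.4% and 49.9% of all tested genes were positive. The median log2 fold change of the members was 0.53, 0.41 and 0.48, and that of all tested genes 0.00 each time. The 3 comparisons share their control libraries, so that the signs are not independent. Over the mean of the 3 acyl-CoA groups, 31 of the 36 were positive, with a median of 0.49, where 49.6% of all tested genes were. With edgeR's quasi-likelihood test and Benjamini-Hochberg adjustment, 0 of 17036 genes (0%) passed an adjusted p of 0.05 in any comparison with control. The smallest adjusted p of a member was 0.988, for AT4G24110 with C16:0 CoA.

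**Figure D1:**
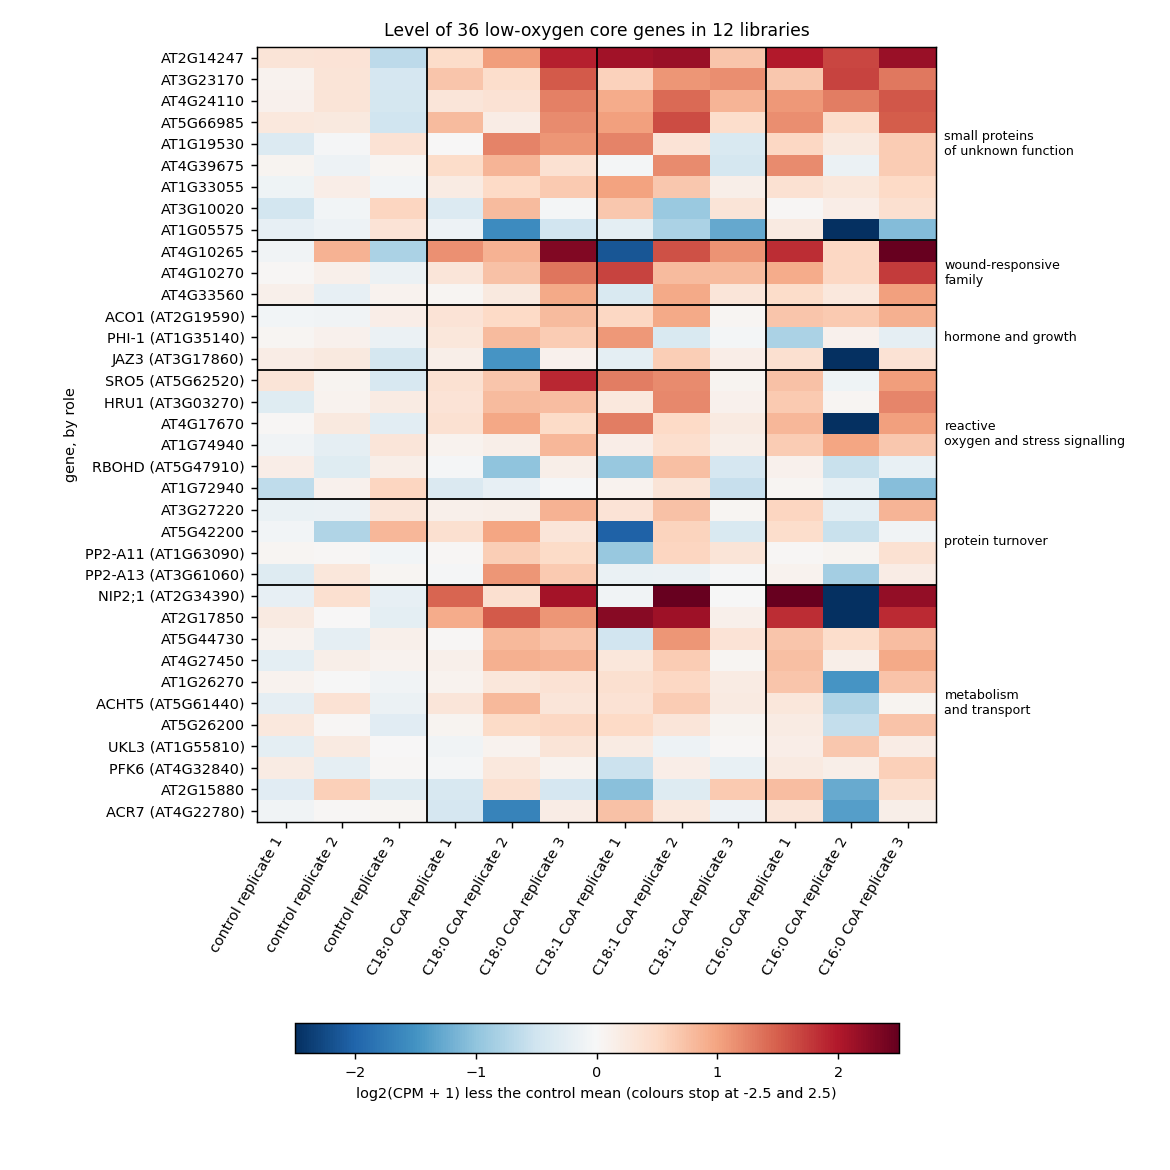
Level of the 36 tested members in each of the 12 libraries, as log2(CPM + 1) less the mean of the 3 control libraries, with genes as rows grouped by role and ordered by their mean fold change. Red is above and blue below the control mean; the wound-responsive family and the upper rows of the small proteins are red in most acyl-CoA libraries, while C16:0 CoA replicate 2 has dark blue cells at 5 members without reads.

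At an unadjusted p under 0.05, 12 members were higher with C18:0 CoA, 10 with C18:1 CoA and 14 with C16:0 CoA, where the shares of all tested genes were 1.23%, 0.722% and 2.74%. On the lower side there were 0 members, where 0.657%, 1.27% and 1.29% of all genes stood. Over the mean of the 3 groups the count was 16, against 1.34% of all genes. These counts leaned on single libraries, and each is given with the share of all tested genes under the same setting. Without C18:0 CoA replicate 3 the first count was 0 (0.653% of all genes), and without replicate 1 it was 16 (2.27%). Without C18:1 CoA replicate 2 the second was 3 (0.635%), and without replicate 3 it was 13 (1.67%). Without C16:0 CoA replicate 3 the third was 8 (3.55%), and without replicate 2 it was 18 (1.56%). Without control replicate 1 the counts were 5, 6 and 10 with the 3 acyl-CoAs and 10 over their mean (0.928%, 0.686%, 1.37% and 0.894%). Without the 3 shallowest libraries they were 16, 13 and 19 with the 3 acyl-CoAs (2.57%, 2.2% and 2.86%). With the trend of each library with gene length removed, the count with C18:0 CoA was 6 (0.957%). With a term per lane the counts were 0, 0 and 2 (0.106%, 0.0646% and 0.875%).

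All 3 C18:0 CoA libraries lay above all 3 control libraries for 13 members, all 3 C18:1 CoA libraries for 6 and all 3 C16:0 CoA libraries for 10, where 5.88%, 4.13% and 5.44% of all tested genes did so. Without the 3 shallowest libraries, with 2 acyl-CoA libraries against 3, the counts were 15, 10 and 24 and the shares of all genes 10.6%, 10.5% and 12%. Below all 3 control libraries lay 0 members with C18:0 CoA, 1 with C18:1 CoA (AT1G05575) and 0 with C16:0 CoA, where 6.47%, 5.15% and 5.95% of all genes did. For 3 members, AT2G14247, AT3G23170 and AT4G10270, all 9 acyl-CoA libraries lay above all 3 control libraries, which 0.475% of all tested genes did, and 0 members lay below in this way (0.434% of all genes). For AT3G23170 this hung on few reads in C18:1 CoA replicate 1 and C18:0 CoA replicate 2. Without the shallowest libraries 6 members lay above, and 1.48% of all genes.

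The libraries of a group differed from each other. The median over members of log2(CPM + 1), centred on the mean of the 12 libraries, was -0.39, -0.26 and -0.24 in control replicates 1 to 3, and -0.10, 0.12 and 0.35 with C18:0 CoA. The C18:1 CoA replicates were at 0.10, 0.44 and -0.18 and the C16:0 CoA replicates at 0.27, -0.28 and 0.48. The same median over all tested genes lay between -0.05 and 0.07 in every library. C16:0 CoA replicate 2 lay within the control range and C18:1 CoA replicate 3 just above it, while the other 7 acyl-CoA libraries were higher. In C18:0 CoA replicate 3, 34 of 36 members stood above their own mean, while control replicate 1 had 6 such members. Libraries that the labels put on the same lane allow 3 comparisons with a control within a lane. The median member was 0.20 higher in C18:1 CoA replicate 3 than in control replicate 1 (24 of 36 higher), 0.57 higher in C16:0 CoA replicate 1 than in control replicate 2 (31 higher), and -0.14 in C16:0 CoA replicate 2 against control replicate 3 (17 higher). No C18:0 CoA library shared a lane with a control, but replicate 1 shared one with C16:0 CoA replicate 3, and the median member was -0.63 in the former less the latter (6 of 36 higher). With a term per lane, which leaves 1 residual degree of freedom, the medians were -0.15 with C18:0 CoA, 0.22 with C18:1 CoA and 0.28 with C16:0 CoA. With the i7 index set, which all C16:0 CoA libraries and no control library carry in the second form, as a covariate, the median with C16:0 CoA was 1.02. The only other library with that form is C18:1 CoA replicate 3, so that the index term rests on it against the other C18:1 CoA libraries. The lane-term value with C18:0 CoA rests on its pair with C16:0 CoA replicate 3 and on the lanes that C16:0 CoA shares with controls, and that with C18:1 CoA on 1 pair.

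**Figure D2:**
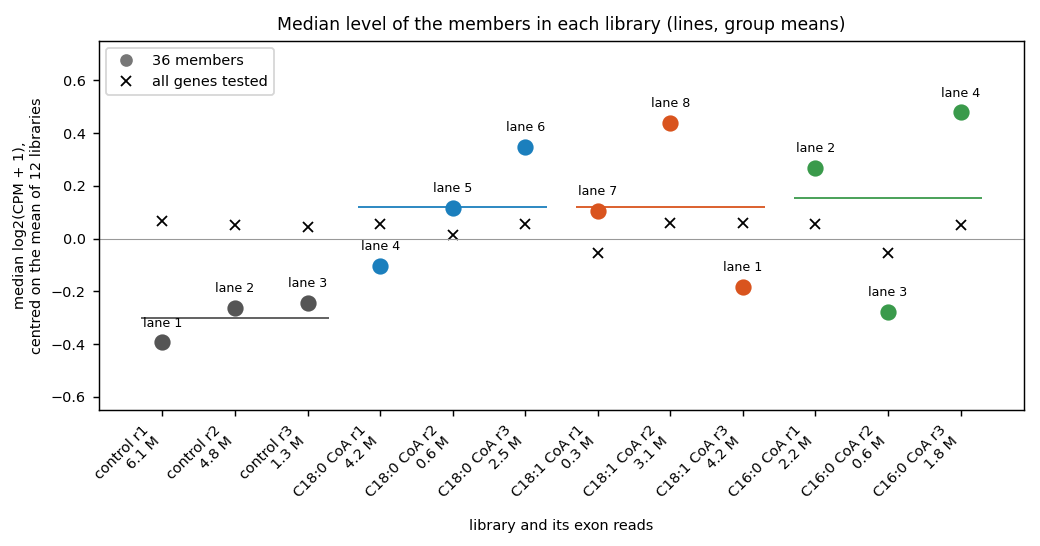
Median level of the 36 tested members in each library (circles) and of all tested genes (crosses), on the log2(CPM + 1) scale centred on the mean of the 12 libraries; horizontal lines are group means and the sequencing lane is written above each circle. The 3 control libraries lie lowest, between -0.39 and -0.24, C16:0 CoA replicate 2 lies among them, and the crosses stay between -0.05 and 0.07.

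Some promoters held a match to a pattern for the hypoxia-responsive promoter element. The pattern left its middle bases open, so that a match need not be the element as published. The form searched was AAACCA followed after any 3 bases by GC, on both strands, in the 250 bases before each gene's annotated start in RefSeq's TAIR10.1. It was present for 3 of 38 members (7.89%) and for 222 of 27444 protein-coding genes (0.809%). In 1000 bases it was present for 7 members (18.4%) and 3.41% of all genes, a window chosen after the first had been seen. The core AAACCA alone was found in the 250 bases of 15 members (39.5%) and of 27.3% of all genes. The windows below, 29 bases each and 5′ to 3′ on the strand of the gene, are shown for the members with a match within 1000 bases, which include those with the smallest p and, in AT1G05575, the one with the lowest fold change. Capitals mark the match, which reads GC, any 3 bases and TGGTTT where it lies on the opposite strand.
AT2G14247: agacttgttAAACCACATGCcatcatttt
AT4G10270, far match: acaatctcaAAACCAGGTGCacatgatag
AT4G10270, near match: aaacaaccaAAACCAACGGCcacagcttc
NIP2;1: tgctctccaAAACCATCTGCtgcaattca
AT4G24110: gagaacccaAAACCAGCAGCtcaagatca
AT1G74940: aaaaaataaAAACCACTAGCtaaactaat
AT1G05575: ttcttagagGCACTTGGTTTttttccgga
The first lies at chr2:6034251-6034279 on the plus strand, its match starting 22 bases before the gene start. The AT4G10270 windows lie at chr4:6374495-6374523 and chr4:6374625-6374653 on the plus strand, 230 and 100 bases before its start. AT4G10265 reads the other way from the same gap, and the same matches stand 847 and 977 bases before its start, in the opposite orientation. The NIP2;1 window lies at chr2:14516069-14516097 on the minus strand, 100 bases before its start and across an annotated exon. The AT4G24110 window lies at chr4:12521570-12521598 on the minus strand, 691 bases before its start, that of AT1G74940 at chr1:28145542-28145570 on the plus strand, 427 bases before, and that of AT1G05575 at chr1:1662498-1662526 on the minus strand, 258 bases before and across an annotated exon. Distances are counted from the RefSeq gene starts, which for some members differ from the deposited coordinates. The median log2 fold change over the mean of the 3 acyl-CoA groups was 1.03 for the 7 members with a match in 1000 bases and 0.31 for the other 29 tested. With 250 bases it was 1.61 for 3 members and 0.45 for 33. AT2G14247, with a match in both windows, entered the test with the help of acyl-CoA libraries, where it was higher. So did AT4G10265, with matches in the wider window. The medians with a match are thus not independent of the filter. AT4G10265 and AT4G10270 enter the wider window on the same matches. They, AT1G05575, AT2G14247 and AT4G24110 have exons under 1000 bases, while NIP2;1 and AT1G74940 are longer. Over the same mean, the 14 tested members under 1000 bases had a median of 0.79 and the 22 longer 0.27. The shorter set also holds AT2G14247, AT4G10265 and AT5G42200, which entered in that way. Match and length were not separated. These medians are a description, without a test, and a match is not a shown binding site.

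The small proteins of unknown function were 10, of which 9 were tested. With each acyl-CoA 8 of the 9 were positive. The medians were 0.68 with C18:0 CoA, 0.55 with C18:1 CoA and 0.70 with C16:0 CoA, and 5, 5 and 4 reached an unadjusted p under 0.05. Of all tested genes, 50.4%, 50.4% and 49.9% were positive, and 1.23%, 0.722% and 2.74% were higher at that p. The same shares apply to each role group below. AT2G14247, counted here, reached the level of the filter in only 2 control libraries. The small proteins held some of the most abundant members. On the scale of CPM per kilobase of exon, a level that can be compared between genes, the 36 tested members had control means from 4.55 ± 3.19 (AT5G42200) to 371 ± 52.9 (AT4G27450) (SD, n = 3). AT3G10020 was second with 246 ± 87.0 (SD, n = 3), followed by AT1G19530 with 218 ± 53.9 and AT4G39675 with 177 ± 13.6, and AT2G14247 was low with 11.7 ± 4.67. AT3G10020 and AT1G19530 did not differ beyond their spread.

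AT2G14247, an expressed protein of unknown function encoded by 1 exon at chr2:6034348-6034835 in the deposited TAIR10 coordinates, was at 6.98, 7.10 and 3.09 CPM in control replicates 1 to 3. It was at 7.81, 12.3 and 23.8 CPM with C18:0 CoA, 26.6, 27.8 and 9.37 CPM with C18:1 CoA and 24.3, 19.5 and 27.6 CPM with C16:0 CoA. Every acyl-CoA library lay above every control library, with C18:0 CoA replicate 1 and C18:1 CoA replicate 3 close to the highest control. The log2 fold change was 1.23 ± 0.48 (SE) with C18:0 CoA, 1.65 ± 0.48 (SE) with C18:1 CoA and 1.96 ± 0.47 (SE) with C16:0 CoA. With a term per lane AT2G14247 had 0.24, 0.42 and 2.06 in that order. Its highest control library held 7.10 CPM and the 3 C16:0 CoA libraries at least 19.5 CPM. In edgeR's quasi-likelihood test the unadjusted p with C16:0 CoA was 0.000599 and the adjusted p 0.988.

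AT4G24110 (1 exon, chr4:12519932-12520813) had the smallest p of all members. Its levels were 26.2, 30.8 and 17.8 CPM in control replicates 1 to 3. They were 30.1, 31.6 and 59.8 CPM with C18:0 CoA, 47.2, 66.3 and 44.7 CPM with C18:1 CoA and 52.7, 60.4 and 73.3 CPM with C16:0 CoA. The C18:1 CoA and C16:0 CoA libraries all lay above the control, whereas C18:0 CoA replicate 1 lay inside its range and replicate 2 less than 1 CPM above it. Against the control, the log2 fold change was 0.68 ± 0.29 (SE) with C18:0 CoA, 1.06 ± 0.29 (SE) with C18:1 CoA and 1.27 ± 0.29 (SE) with C16:0 CoA, with an unadjusted p of 0.000358 with C16:0 CoA and an adjusted p of 0.988 in edgeR's quasi-likelihood test. With a term per lane the value with C18:0 CoA was -0.09.

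AT3G23170 (1 exon, chr3:8267942-8268735) was at 8.09, 9.74 and 5.41 CPM in control replicates 1 to 3. It was at 12.9, 10.5 and 23.8 CPM with C18:0 CoA, 11.8, 17.3 and 18.0 CPM with C18:1 CoA and 12.6, 26.6 and 20.3 CPM with C16:0 CoA. All 9 acyl-CoA libraries lay above the 3 controls, C18:0 CoA replicate 2 by less than 1 CPM, where 1 read was 1.75 CPM. In C18:1 CoA replicate 1 a level of 3 reads was 8.85 CPM, which is below the highest control. The 11.8 CPM there rested on few reads, so that depth limits the separation. The levels of AT3G23170 gave a log2 fold change of 1.02 ± 0.38 (SE) with C18:0 CoA, 1.04 ± 0.38 (SE) with C18:1 CoA and 1.19 ± 0.39 (SE) with C16:0 CoA. With a term per lane the values were 0.48, 1.15 and 1.14 in that order.

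AT5G66985 (1 exon, chr5:26743279-26743808) was at 20.3, 20.1 and 11.6 CPM in control replicates 1 to 3. It was at 29.6, 19.3 and 39.6 CPM with C18:0 CoA, 35.4, 54.0 and 23.2 CPM with C18:1 CoA and 38.7, 23.1 and 50.2 CPM with C16:0 CoA. The C18:0 CoA libraries overlapped the control through replicate 2, and the C18:1 CoA and C16:0 CoA libraries lay above it. The log2 fold change was 0.78 ± 0.35 (SE) with C18:0 CoA, 1.06 ± 0.35 (SE) with C18:1 CoA and 1.11 ± 0.35 (SE) with C16:0 CoA. Under the lane term the values were 0.20, 0.19 and 0.96 in that order.

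Among the other small proteins, AT1G33055 had log2 fold changes of 0.45, 0.55 and 0.40, AT1G19530 0.85, 0.47 and 0.47 and AT4G39675 0.56, 0.45 and 0.70, in the order C18:0 CoA, C18:1 CoA and C16:0 CoA. AT1G33055 overlaps AT1G33050, which held 3237 exon reads, and the use of strand in counting is not given, so that their reads cannot be told apart. AT1G19530 was at 150.0, 356 and 325 CPM in C18:0 CoA replicates 1 to 3 and at 118 to 193 CPM in the control, so that replicate 1 lay inside the control range, and its highest library was C18:1 CoA replicate 1 with 357 CPM. AT3G10020 had log2 fold changes of 0.14, 0.08 and 0.16, all smaller than their standard errors of 0.35. AT1G05575 went the other way, with -0.46, -1.09 and -0.56. It was at 6.03, 6.49 and 9.27 CPM in control replicates 1 to 3, and at 5.90, 3.70 and 2.34 CPM with C18:1 CoA. Its intervals spanned 0 each time, and it had only 171 reads in the 12 libraries.

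**Figure D3:**
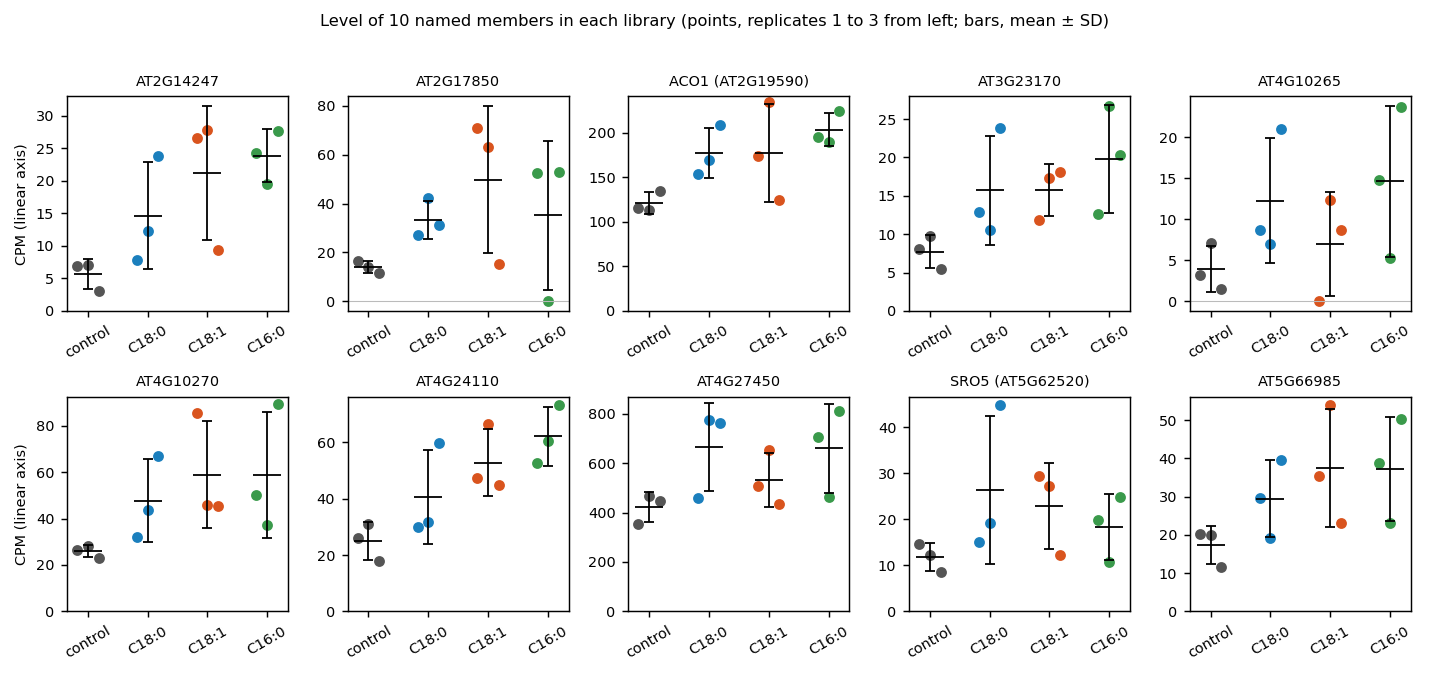
CPM of the 10 members described library by library, with 1 panel a gene; points are replicates 1 to 3 from left to right, and bars are the group mean ± SD (n = 3). In AT2G14247, AT3G23170 and AT4G10270 every acyl-CoA point lies above every control point, and in AT2G17850 the point of C16:0 CoA replicate 2 is at 0.

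The wound-responsive family is made of short proteins named for a relative induced by wounding, and all 3 members were positive with each acyl-CoA. The medians of log2 fold change were 0.86 with C18:0 CoA, 1.02 with C18:1 CoA and 1.21 with C16:0 CoA, and 2, 1 and 3 reached an unadjusted p under 0.05. AT4G10265 reached the level of the filter in only 1 control library. It entered with the help of acyl-CoA libraries, where it was higher, so that its part in these counts was not independent of its direction. AT4G10265 and AT4G10270 are neighbours on chromosome 4.

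AT4G10270 (1 exon, chr4:6374734-6375210) was at 26.3, 28.2 and 23.2 CPM in control replicates 1 to 3. It was at 32.2, 43.8 and 67.0 CPM with C18:0 CoA, 85.6, 45.7 and 45.4 CPM with C18:1 CoA and 50.0, 37.3 and 89.1 CPM with C16:0 CoA. All 9 acyl-CoA libraries lay above the control, with the 3 highest being replicate 3 of C16:0 CoA, replicate 1 of C18:1 CoA and replicate 3 of C18:0 CoA. Against the control, the log2 fold change was 0.86 ± 0.33 (SE) with C18:0 CoA, 1.02 ± 0.33 (SE) with C18:1 CoA and 1.21 ± 0.33 (SE) with C16:0 CoA. With a term per lane the value with C18:0 CoA was -0.70. The gene overlaps AT4G10280, which held 421 exon reads.

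AT4G10265 (1 exon, chr4:6373097-6373536) was at 3.17, 7.10 and 1.54 CPM in control replicates 1 to 3. It was at 8.73, 7.01 and 21.0 CPM with C18:0 CoA, 0, 12.3 and 8.67 CPM with C18:1 CoA and 14.9, 5.33 and 23.7 CPM with C16:0 CoA. Every acyl-CoA group overlapped the control, C18:0 CoA only through replicate 2, which held slightly less than control replicate 2. The 0 in C18:1 CoA replicate 1 stood where 3.49 reads were expected from the other libraries, so that depth limits it. This gave a log2 fold change of 1.56 ± 0.59 (SE) with C18:0 CoA, 1.06 ± 0.60 (SE) with C18:1 CoA and 1.86 ± 0.59 (SE) with C16:0 CoA. The lane term gave -0.21 with C18:0 CoA. AT4G33560, the third of the family, had log2 fold changes of 0.49, 0.51 and 0.66, in the order C18:0 CoA, C18:1 CoA and C16:0 CoA.

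In hormone and growth, 3 members were measured, of which 2, 3 and 1 were positive with C18:0 CoA, C18:1 CoA and C16:0 CoA. The medians were 0.54, 0.25 and -0.04. Only ACO1 had an unadjusted p under 0.05, with each acyl-CoA. ACO1 (AT2G19590, 3 exons, chr2:8475966-8477502), a 1-aminocyclopropane-1-carboxylate oxidase, which makes ethylene from its precursor, was at 115, 113 and 135 CPM in control replicates 1 to 3. It was at 153, 170.1 and 209 CPM with C18:0 CoA, 174, 235 and 125 CPM with C18:1 CoA and 196, 190.0 and 225 CPM with C16:0 CoA. All libraries of C18:0 CoA and C16:0 CoA lay above the control, and C18:1 CoA replicate 3 lay inside its range. The log2 fold change was 0.56 ± 0.23 (SE) with C18:0 CoA, 0.56 ± 0.23 (SE) with C18:1 CoA and 0.76 ± 0.23 (SE) with C16:0 CoA. The lane term gave ACO1 values of 0.10, 0.11 and 0.65 in that order.

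PHI-1, of the EXORDIUM-like growth proteins, had log2 fold changes of 0.54, 0.05 and -0.41 with C18:0 CoA, C18:1 CoA and C16:0 CoA. All its C18:0 CoA libraries lay above the control, and the other groups overlapped it. JAZ3, a repressor of jasmonate signalling, had -0.15, 0.25 and -0.04, and it held 0 reads in C16:0 CoA replicate 2, where 12.8 were expected.

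The members in reactive oxygen and stress signalling were 6, and 4, 5 and 4 of them were positive with C18:0 CoA, C18:1 CoA and C16:0 CoA. The medians were 0.50, 0.40 and 0.65, and 2, 1 and 2 had an unadjusted p under 0.05. SRO5 (AT5G62520, 6 exons, chr5:25097998-25099907), of the RCD1-like family that acts in oxidative and salt stress, was at 14.6, 12.2 and 8.50 CPM in control replicates 1 to 3. It was at 15.2, 19.3 and 44.8 CPM with C18:0 CoA, 29.5, 27.2 and 12.2 CPM with C18:1 CoA and 19.8, 10.7 and 24.8 CPM with C16:0 CoA. The C18:0 CoA libraries lay above the control, replicate 1 by less than 1 CPM, and the other groups overlapped it. Against the control, the log2 fold change was 1.14 ± 0.42 (SE) with C18:0 CoA, 0.77 ± 0.44 (SE) with C18:1 CoA and 0.68 ± 0.44 (SE) with C16:0 CoA. Under the lane term the values were -0.14 with C18:0 CoA and -0.26 with C18:1 CoA. SRO5 overlaps AT5G62530, which held 1503 exon reads, and their reads cannot be told apart without strand.

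HRU1, a universal stress protein that in Arabidopsis links low oxygen to the NADPH oxidase RBOHD, had log2 fold changes of 0.64, 0.63 and 0.74 with C18:0 CoA, C18:1 CoA and C16:0 CoA. It was at 85.3, 113 and 123 CPM in control replicates 1 to 3. It was at 135, 184 and 180.1 CPM with C18:0 CoA, 127, 245 and 114 CPM with C18:1 CoA and 168, 110.1 and 246 CPM with C16:0 CoA. The C18:0 CoA libraries lay above the control, while 1 library of each other group lay within its range. The lane term gave HRU1 -0.64 with C18:0 CoA. RBOHD itself had -0.12, 0.13 and -0.14, each smaller than its standard error. The FCS-like zinc finger genes AT1G74940 and AT4G17670 had 0.45, 0.28 and 0.79 and 0.54, 0.52 and 0.61. AT1G72940, a TIR-domain protein of the immune receptor type, had -0.22, -0.06 and -0.38.

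In protein turnover all 4 members were positive with C18:0 CoA, 3 with C18:1 CoA and 3 with C16:0 CoA, and 0 had an unadjusted p under 0.05 against the control. The medians were 0.50, 0.18 and 0.18. AT3G27220, a kelch-repeat protein, had 0.44, 0.42 and 0.49 in that order. The F-box proteins of the phloem protein type PP2-A11 and PP2-A13 had 0.34, 0.29 and 0.18 and 0.56, -0.11 and -0.06. AT5G42200, a RING-type protein, had 0.65, 0.07 and 0.18, with 107 reads in all and standard errors of 0.66 to 0.70. It reached the level of the filter in only 1 control library.

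Metabolism and transport was the widest group, with 12 members, of which 11 were tested. The numbers positive were 9, 10 and 9 with C18:0 CoA, C18:1 CoA and C16:0 CoA, the medians 0.30, 0.33 and 0.32, and 2, 2 and 4 had an unadjusted p under 0.05. NIP2;1 and AT2G17850 had the largest fold changes of the group.

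NIP2;1 (AT2G34390, 4 exons, chr2:14514487-14515915), a channel of the aquaporin family that in Arabidopsis roots carries lactic acid, had the largest fold change of all tested members with each acyl-CoA, with wide intervals. It was at 5.39, 8.72 and 5.41 CPM in control replicates 1 to 3. It was at 19.1, 8.77 and 30.3 CPM with C18:0 CoA, 5.90, 46.0 and 6.32 CPM with C18:1 CoA and 40.1, 0 and 32.7 CPM with C16:0 CoA. A total of 5 acyl-CoA libraries held 19.1 to 46.0 CPM and the other 4 were at 8.77 CPM or less, close to the control. This gave a log2 fold change of 1.66 ± 0.71 (SE) with C18:0 CoA, 1.75 ± 0.71 (SE) with C18:1 CoA and 2.05 ± 0.71 (SE) with C16:0 CoA. The value with C18:1 CoA rested on replicate 2 and was -0.10 without it. Under the lane term NIP2;1 had 0.49 with C18:0 CoA, 0.23 with C18:1 CoA and 1.26 with C16:0 CoA. The 0 in C16:0 CoA replicate 2 stood where 10.7 reads were expected, and the gene overlaps AT2G34380, which held 327 exon reads.

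AT2G17850 (4 exons, chr2:7760005-7760822), of the rhodanese family of sulfur transferases, was at 16.3, 14.0 and 11.6 CPM in control replicates 1 to 3. It was at 27.1, 42.1 and 31.1 CPM with C18:0 CoA, 70.8, 63.3 and 15.2 CPM with C18:1 CoA and 52.7, 0 and 53.0 CPM with C16:0 CoA. All C18:0 CoA libraries and 4 others lay above the control, C18:1 CoA replicate 3 inside its range, and C16:0 CoA replicate 2 had no read where 20.3 were expected. The log2 fold change was 1.14 ± 0.58 (SE) with C18:0 CoA, 1.64 ± 0.58 (SE) with C18:1 CoA and 1.47 ± 0.57 (SE) with C16:0 CoA. Under the lane term it was -0.16 with C18:0 CoA and -0.10 with C18:1 CoA. Without the 3 shallowest libraries it was 1.86 with C16:0 CoA, with an adjusted p of 0.174 in edgeR's quasi-likelihood test.

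AT4G27450 (4 exons, chr4:13727484-13728886), an aluminium-induced protein with YGL and LRDR motifs, was the most abundant member, at 353, 465 and 448 CPM in control replicates 1 to 3. It was at 459.5, 775 and 761 CPM with C18:0 CoA, 508, 651 and 434 CPM with C18:1 CoA and 704, 462 and 812 CPM with C16:0 CoA. In each acyl-CoA group at least 1 library lay within the control range, and the highest was C16:0 CoA replicate 3. Against the control, the log2 fold change was 0.65 ± 0.24 (SE) with C18:0 CoA, 0.33 ± 0.24 (SE) with C18:1 CoA and 0.65 ± 0.24 (SE) with C16:0 CoA. The C18:0 CoA value was -0.50 with a term per lane.

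Of the rest, AT5G44730, a haloacid dehalogenase-like hydrolase, had log2 fold changes of 0.52, 0.61 and 0.68 in the order C18:0 CoA, C18:1 CoA and C16:0 CoA. ACHT5, a plastid thioredoxin, had 0.41, 0.40 and -0.01 and AT1G26270, of the phosphatidylinositol 3- and 4-kinase family, 0.24, 0.38 and 0.31. The remaining 5 were the phosphofructokinase PFK6, the uridine kinase-like UKL3, the ACT-domain protein ACR7, the mitochondrial carrier AT5G26200 and the leucine-rich repeat protein AT2G15880. Their 15 log2 fold changes lay between -0.31 and 0.37, and every interval spanned 0. AT5G44730 overlaps AT5G44720, with 1855 exon reads, and AT5G26200 overlaps AT5G26210, with 1799.

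**Figure D4:**
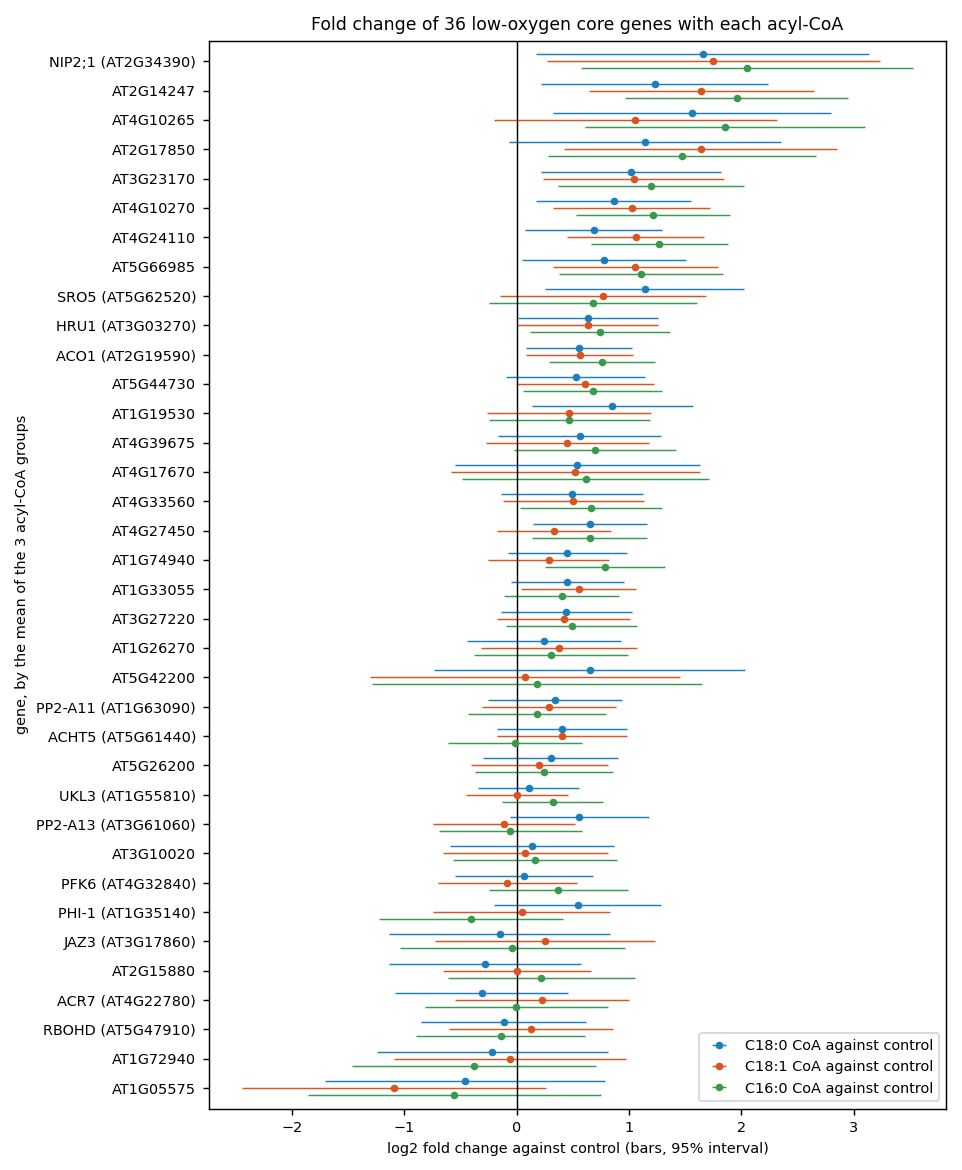
Log2 fold change of the 36 tested members with each acyl-CoA against control, with 95% intervals from the fitted standard errors, and genes ordered by the mean of the 3 comparisons. NIP2;1 is at the top with 1.66 to 2.05 and AT1G05575 at the bottom with -1.09 to -0.46; the intervals widen in genes with few reads.

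The acyl-CoAs differ in their chains, which were compared directly in 3 pairs at the same dose and time. C18:1 CoA has 1 double bond that C18:0 CoA lacks, C18:0 CoA has a chain of 18 carbons against 16 in C16:0 CoA, and C18:1 CoA differs from C16:0 CoA in both. For the double bond the median log2 difference of the members was 0.00 (C18:1 CoA less C18:0 CoA, 17 of 36 positive, 49.7% of all genes). It was -0.26 (9 positive) without C18:1 CoA replicate 2, 0.15 (25 positive) without C18:0 CoA replicate 3 and 0.42 (26 positive) under the lane term. For chain length the median was -0.11 (C18:0 CoA less C16:0 CoA, 13 positive, 49.3% of all genes), but 0.10 (20 positive) without C16:0 CoA replicate 3 and 0.02 (19 positive) without C18:0 CoA replicate 1. For C18:1 CoA less C16:0 CoA it was -0.09 (12 positive, 49.6% of all genes), but 0.11 (21 positive) without C16:0 CoA replicate 3, 0.10 (23 positive) without C18:1 CoA replicate 3 and 0.02 (19 positive) without C16:0 CoA replicate 1. The direction of each median thus turned with single libraries. In each pair 0 of 17036 genes (0%) passed an adjusted p of 0.05 in edgeR's quasi-likelihood test. At an unadjusted p under 0.05 stood PP2-A13, lower with C18:1 CoA than with C18:0 CoA by a log2 difference of -0.67 (95% interval -1.32 to -0.02), where 1.78% of all genes were lower. Leaving out C18:0 CoA replicate 2 gave -0.44 and the lane term gave 1.01, and the gene overlaps AT3G61070, which held 1508 exon reads. PHI-1 was higher with C18:0 CoA than with C16:0 CoA by 0.95 (0.12 to 1.78), where 1.1% of all genes were higher, and by 0.68 (-0.27 to 1.63) without C16:0 CoA replicate 1. Between C18:1 CoA and C16:0 CoA there were 0 such members, where 0.898% of all genes were higher and 1.94% lower. The log2 differences ranged over the members from -0.67 to 0.54 for the double bond, from -0.73 to 0.95 for chain length and from -0.80 to 0.45 for both.

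The intervals of these differences were wide. They stayed within 1 log2 unit of 0 for 20 of 36 members between C18:1 CoA and C18:0 CoA, for 17 between C18:0 CoA and C16:0 CoA and for 19 between C18:1 CoA and C16:0 CoA. For AT2G14247 the difference between C18:1 CoA and C18:0 CoA was 0.42 (95% interval -0.58 to 1.41), and between C18:0 CoA and C16:0 CoA -0.73 (95% interval -1.71 to 0.25). For AT4G24110 they were 0.38 (95% interval -0.24 to 0.99) and -0.59 (95% interval -1.20 to 0.03). ACO1 had 0.00 (95% interval -0.47 to 0.48) and -0.20 (95% interval -0.67 to 0.27), the narrowest among the members described library by library. A p that misses the threshold does not show that the compounds act alike.

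Short genes made up much of the list, and fold changes were larger among them. The 38 members had a median exon length of 1134.5 bases (435 to 3201), against 1591 for all tested genes. Among the 14 tested members under 1000 bases, 13 were positive with each acyl-CoA, and the median log2 fold changes were 0.73, 0.77 and 0.90 with C18:0 CoA, C18:1 CoA and C16:0 CoA. They include AT2G14247, AT4G10265 and AT5G42200, which entered the test with the help of acyl-CoA libraries and were positive with each acyl-CoA. The count and medians of the short members are thus not independent of the filter. Of all tested genes of any length, 50.4%, 50.4% and 49.9% were positive. The 22 longer members had medians of 0.42, 0.29 and 0.31. With the trend of each library with gene length removed, the medians of all 36 were 0.41, 0.39 and 0.44. Without the 3 shallowest libraries, in which short genes stood highest, they were 0.44, 0.38 and 0.70.

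**Figure D5:**
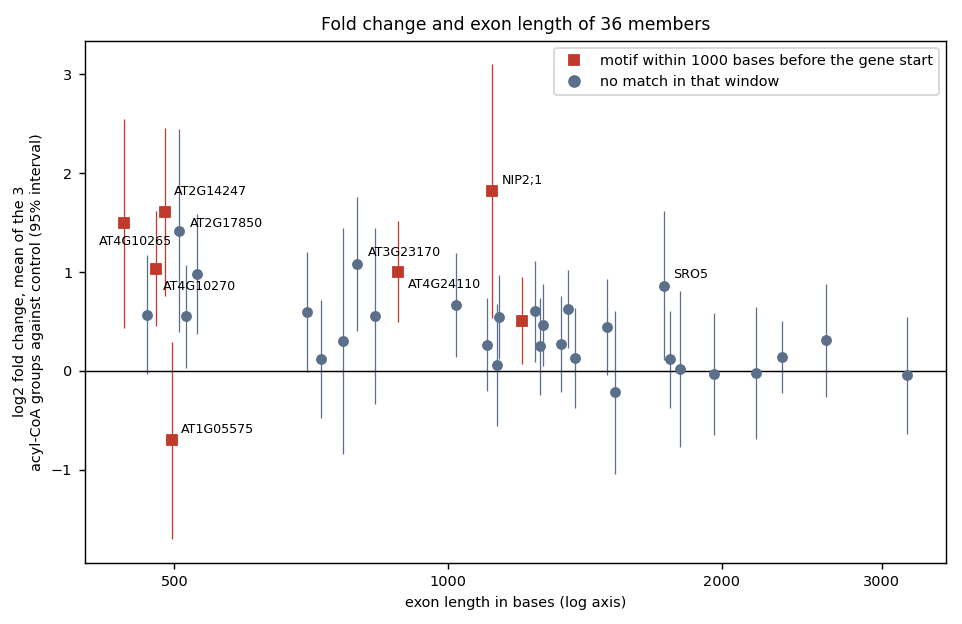
Log2 fold change of each tested member, for the mean of the 3 acyl-CoA groups against control with 95% interval, against exon length in bases on a log axis. Squares are members with a match to the promoter pattern within 1000 bases before the gene start. The members above a log2 fold change of 1 are shorter than 1000 bases except NIP2;1, and AT1G05575, a square, is the lowest point.

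The members varied together from library to library within groups. The mean pairwise correlation of their log2 levels after removal of the group means was 0.26 over the 36 members and 0.02 over all tested genes. The 12 libraries share depth and handling among all genes. The mean over all genes pools genes that move in opposite ways. No set of like length or level was compared, so that these values do not set the members apart from other gene sets. AT4G27450, NIP2;1, HRU1 and AT3G27220 followed the median of the other members most closely, with r of 0.86, 0.85, 0.84 and 0.83. UKL3, PHI-1 and AT3G10020 ran against it, with -0.38, -0.34 and -0.27, and AT3G23170, although higher in all 9 acyl-CoA libraries, had -0.10.

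The deposited table also holds the authors' own comparisons by Baggerley's test, which compares weighted proportions of reads. The authors' deposited table had 14 members higher with C18:0 CoA at an FDR-adjusted p under 0.05, 9 with C18:1 CoA and 5 with C16:0 CoA, where 2.64%, 1.91% and 2.15% of all genes were. AT1G05575 was lower with C18:1 CoA in the authors' deposited table, with a signed fold change of -2.13. AT2G14247 had a fold change of 3.91 with C16:0 CoA in the authors' deposited table. That test and the quasi-likelihood model treat the spread between libraries differently, and the table's counts of calls are not counts of this model.

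Reads outside exons gave a further readout that the gene-level counts above do not use. They made up 3.27% of the members' gene reads in the control, 2.95% with C18:0 CoA, 4.28% with C18:1 CoA and 3.70% with C16:0 CoA, against 2.09%, 2.02%, 2.33% and 2.33% over all genes. AT2G15880 had the highest share, 28.3%, followed by AT2G17850 with 13.8% and AT3G27220 with 12.7%. Members with 1 exon also carried such reads, 62 for AT1G33055, so that the column is not a measure of introns alone.

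Other low-oxygen genes were looked at for their counts. Of 15 such genes, among them the fermentation enzymes ADH1 and PDC1, the sucrose synthases SUS1 and SUS4, the oxidases PCO1 and PCO2 and the regulators LBD41 and HRA1, all 15 were tested. Their log2 fold changes were positive for 14 with C18:0 CoA, 13 with C18:1 CoA and 14 with C16:0 CoA, with medians of 0.55, 0.64 and 0.93. Of all tested genes, 50.4%, 50.4% and 49.9% were positive. At an unadjusted p under 0.05, 7, 5 and 10 of the 15 were higher, against 1.23%, 0.722% and 2.74% of all tested genes. None of the 15 passed the adjusted test in either direction, as for the members.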

How the data were processed

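RNA-seq of 12 libraries gave a deposited table of read counts for each gene's exons, introns and whole length, per the file headers. Mapping was to TAIR10, per the submitters' processing notes, and the library kit kept strand, per the labels' protocols. Neither the aligner nor the annotation release nor whether counting used strand is given in the sources used here. Unique equalled total exon reads in every cell (0 differed). The authors also deposited Baggerley's test as a signed fold score, the linear fold change with a minus sign for lower values, and its p-values, per the file headers.

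Exon counts were fitted in edgeR 4.0.16 (R 4.3.3) with a quasi-likelihood model of 1 mean per group over all 12 libraries, TMM scaling, filterByExpr, two-sided tests and Benjamini-Hochberg adjustment over 17036 genes at 0.05. The fit was tested on simulated data. The biological coefficient of variation was 0.229. Intervals are 95%, from the fitted standard error, and approximate. Levels are CPM on TMM-scaled sizes; 3 reads served as a floor for counting error. P-values measure the spread between libraries of a group, each from a pool of plants. That spread holds depth and lane as well as the pools.

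The members, their role groups and the other lists were chosen with earlier results of these data known, so that no p is given over a list. Values in every library are given for the 6 members with the smallest p in any comparison with control, which made 10, and fold changes for up to 4 more per role. Levels of NIP2;1, HRU1 and AT1G05575, and the fold changes of RBOHD, AT3G10020 and the last metabolic genes, were added after their values were seen. Alternatives covered scaling, filter, test (DESeq2 1.42.0, limma 3.58.1), reads counted, replicate block, depth, gene length, index, lane and each library left out. Promoters came from RefSeq's TAIR10.1 genome. Of 26710 genes in both annotations, 12983 shared a start or an end with the deposited table, so that distances hold for RefSeq's gene starts. Protein sequences were not used here.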

Additional observations from a re-analysis of the deposited data

How the results depend on the processing

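In no alternative did a member pass the adjusted test, and the smallest adjusted p of a member was 0.159, for AT4G10270 with C16:0 CoA. Without one library the members' median log2 fold change ranged from 0.40 to 0.67 with C18:0 CoA, 0.18 to 0.56 with C18:1 CoA, 0.34 to 0.69 with C16:0 CoA and 0.39 to 0.59 over their mean. It ranged from -0.26 to 0.15 for C18:1 CoA against C18:0 CoA, -0.24 to 0.10 for C18:0 CoA against C16:0 CoA and -0.28 to 0.11 for C18:1 CoA against C16:0 CoA. With a term per lane the medians were -0.15 with C18:0 CoA and 0.045 over the mean, 0.42 for C18:1 CoA against C18:0 CoA and -0.65 for C18:0 CoA against C16:0 CoA. With the index covariate they were 1.02 with C16:0 CoA, -0.57 for C18:0 CoA against C16:0 CoA and -0.42 for C18:1 CoA against C16:0 CoA. The cause was not tested. Genes passing the adjusted test were 0 in edgeR as reported. With C18:1 CoA there were 1 without a filter, with limma voom, with the length trend removed and with only the groups compared, 2 with DESeq2 and 5 without the libraries under 1000000 reads. With C16:0 CoA there were 2 with a term per lane and 2 without those libraries, and with a term per lane 1 with C18:0 CoA and 1 over the mean. For C18:1 CoA against C16:0 CoA there was 1 without a filter, with DESeq2, with a term per lane and without those libraries. The promoter pattern was found in 15 members as its core and in 7 with 1000 bases. Replicate numbers share only a number (r of -0.23 to 0.23 between same-numbered libraries, over 0.1 in 5 of 18 pairs). With the replicate block the medians were 0.52, 0.40 and 0.47. The members higher at an unadjusted p under 0.05 were then 11, 7 and 13, against 1.15%, 0.646% and 2.36% of all genes. Direction was kept in every alternative by 10, 19 and 23 of 36 members with C18:0 CoA, C18:1 CoA and C16:0 CoA, and in every one but the lane term by 29, 24 and 25. Among the tested members AT5G42200, AT1G05575 and AT1G72940 had the fewest reads, with 107, 171 and 230 in all.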
